A study of Mus musculus with 10 samples.

Results

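Acr, Prss21, Prss37, Prss39, Prss44, Prss50, Prss51, Prss55 and Tmprss12, genes of the trypsin family of serine proteases, and Pcsk4, a serine protease of the separate subtilisin family, were followed in the testis of wild-type (WT) and Crem knockout (KO) mice. They were chosen by name for their known expression in testis, with earlier results of these data known. They make up 10 of the 19661 genes measured, each read by 1 array feature that carried only its symbol. Total RNA of whole testis came from 5 WT and 5 KO mice, 1 mouse per Affymetrix Mouse Gene 1.0 ST array. KO mice were homozygous for a Crem gene disrupted by a neomycin resistance cassette in the part that encodes the DNA-binding domains, so the gene was mutated in all cells and not in germ cells only. All mice had a mixed 129Pas x C57Bl/J background, were 8 weeks old, received no treatment and were killed at circadian time 0, when the lights came on. The labels name 4 batches, of which batch 2 (1 KO, 3 WT) and batch 4 (3 KO, 1 WT) hold both genotypes, batch 1 is KO replicate 2 and batch 3 is WT replicate 4. The study asked which testis transcripts depend on CREM, a cAMP-responsive transcription factor abundant in spermatids.

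Serine proteases cut peptide bonds with a catalytic serine and are mostly made as inactive precursors that another protease has to cut. In male germ cells they are stored in the acrosome, the secretory cap of the sperm head, or are held on the sperm surface, and some family members have lost the catalytic residues and act without cutting. Loss of several of them in mice leaves sperm that cannot pass from the uterus into the oviduct or that bind the egg coat poorly. CREM binds the cAMP response element (CRE) in promoters of genes that are switched on in round spermatids.

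Promoter sequences from RefSeq (GRCm38.p6, 250 bases before to 50 bases after the annotated start) matched 5 of the 10 genes, namely Prss37, Prss39, Prss50, Tmprss12 and Prss21. Those of Acr, Prss44, Prss51, Prss55 and Pcsk4 were not analysed here. The full CRE, TGACGTCA, was in 0 of the 5 and in 1.79% of all 32851 promoter windows. Its core TGACG, searched on both strands and contained in the full element, was in 1 of the 5, Tmprss12, and in 20.8% of all windows. The 200 bases from 250 to 51 before the start are shown for the gene with the largest change, Prss37 (chr6:40519559-40519758, minus strand), and for the gene with the CRE core, Tmprss12 (chr15:100280587-100280786, plus strand). Capitals mark TGACG, whose first base lies 160 bases before the start of Tmprss12, and the Prss37 stretch holds none.
Prss37: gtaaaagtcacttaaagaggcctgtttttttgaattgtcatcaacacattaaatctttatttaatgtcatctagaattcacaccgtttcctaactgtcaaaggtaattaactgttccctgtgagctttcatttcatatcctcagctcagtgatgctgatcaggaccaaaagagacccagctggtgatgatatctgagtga
Tmprss12: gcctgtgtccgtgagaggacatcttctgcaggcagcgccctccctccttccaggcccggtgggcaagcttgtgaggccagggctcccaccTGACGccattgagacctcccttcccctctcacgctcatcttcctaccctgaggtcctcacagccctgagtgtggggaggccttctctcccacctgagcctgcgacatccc

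Levels are given as log2 values after RMA, the normalisation that fits 1 level per transcript from its probes, so a difference of 1 is a 2-fold change. Changes are KO minus WT with the standard error (SE) of the limma fit, and a gene was called at an adjusted p under 0.05 over all features. Crem itself, the check of the labels, fell from 10.95 ± 0.06 to 9.24 ± 0.15 (SD, n = 5 each), with no overlap between the genotypes. Across features, Pearson's r of a pair of arrays was at least 0.9919 within a genotype and at most 0.9519 between genotypes, and no 2 arrays were identical. Markers of testis cell types were read beside the proteases. The mean level of 4 elongating spermatid markers was 13.3 to 13.6 in WT and 6.85 to 9.90 in KO, and 4 of 4 were lower. Of 4 round spermatid markers 3 were lower (mean 11.7 to 11.8 in WT, 9.21 to 9.67 in KO), by unlike amounts. Spaca1 changed by −4.29, Tssk2 by −4.15 and Tssk1 by −0.68, and the acrosomal marker Acrv1 was not called (0.15). Of 6 spermatocyte markers 4 were higher (10.6 to 10.7 in WT, 10.8 to 10.9 in KO). Macrophage markers were higher in 4 of 4 (7.52 to 7.70 in WT, 8.16 to 8.66 in KO). Also higher were 3 of 4 Leydig, 3 of 5 Sertoli, 2 of 4 spermatogonia and 1 of 4 peritubular myoid markers, and the 1 blood marker was lower. The mean of 3 epididymis markers was 5.28 to 5.59 in WT and 5.16 to 5.42 in KO, with 1 of 3 lower. Fewer cells of a type and less RNA per cell cannot be told apart in whole testis.

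Of the 10 genes, 5 were lower in KO testis, 0 were higher and 5 were not called. Over all 19661 genes 13.2% were lower, 31.1% were higher and 44.3% were called in either direction. Of all genes called, 70.1% were higher, against 43.3% when arrays were centred on housekeeping genes, where 6 of the 10 were lower and 0 higher. With the gene B2m left out of the housekeeping list, 63.6% of called genes were higher, and 6 of the 10 were again lower and 0 higher. Prss37, Prss55 and Prss51 were lower by at least 1 on the log2 scale, a size reached by 4.36% of all genes. These 3 genes were also lower by at least 3, as were 1.39% of all genes. Acr and Pcsk4 were lower by 0.51 and 0.29. The groups of 5 arrays did not overlap for 5 of the 10 genes, beside 32.7% of all genes. At an unadjusted p under 0.05, limma gave 6 lower and 1 higher, Tmprss12, while 36.1% of all genes were higher at that level. The median change of the 10 was −0.24, and that of all genes was 0.07. The 10 genes were chosen by name, with earlier results of these data known, and not drawn from all genes. These counts therefore describe them and rank nothing.

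**Figure D1:**
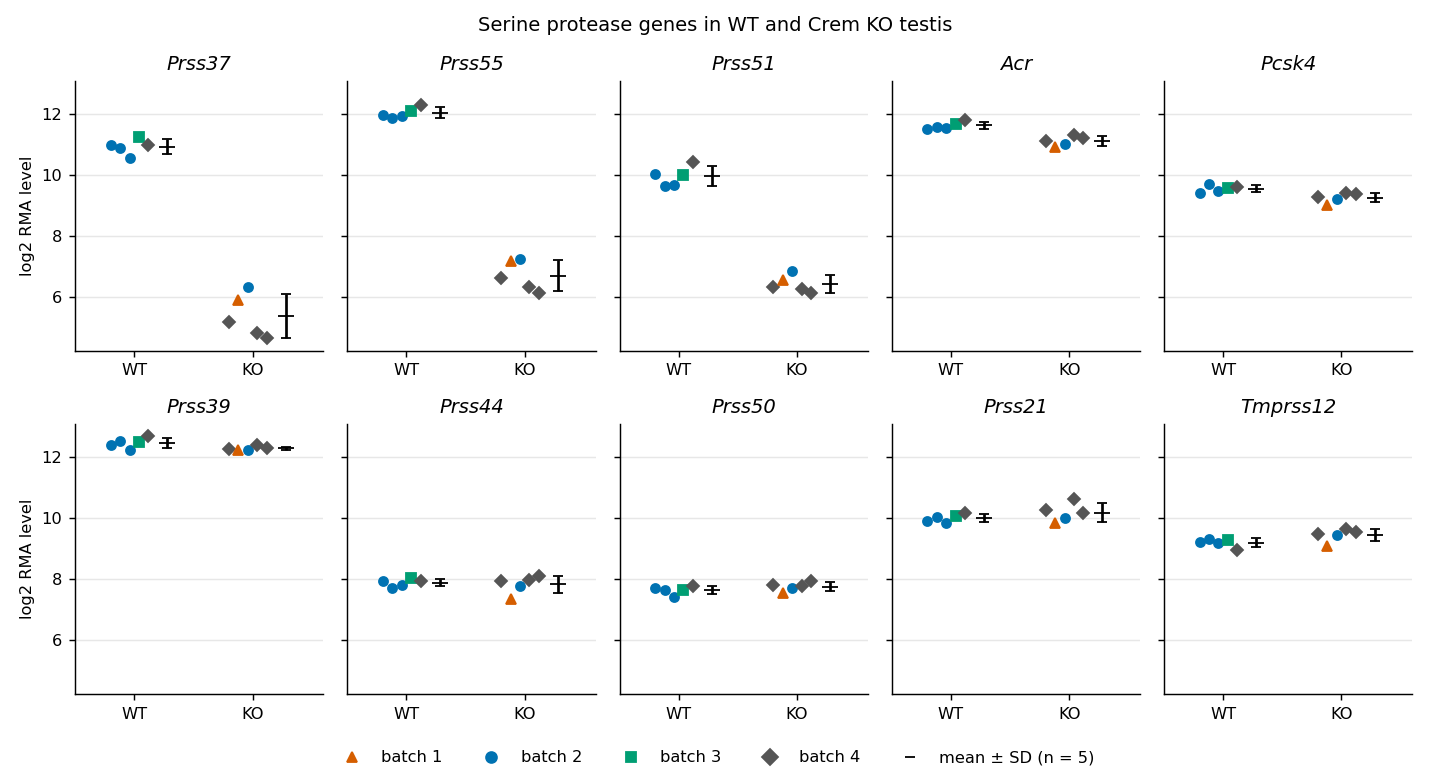
Log2 level (y axis) of the 10 protease genes, with 1 point per mouse shaped and coloured by batch, WT beside KO, and the mean and SD of each group of 5. Prss37, Prss55 and Prss51 drop to levels far below every WT array, Acr and Pcsk4 lie slightly lower without overlap, and the groups of the other genes overlap.

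The genes needed for sperm to reach the oviduct did not move alike. Prss37 encodes a trypsin-like protein that is thought to lack protease activity and without which the surface protein ADAM3 does not mature. Its levels were 10.98, 10.89, 10.56, 11.25 and 10.98 in the WT arrays and 5.20, 5.91, 6.34, 4.81 and 4.65 in the KO arrays. Even the highest KO array lay more than 4 log2 units under the lowest WT array, and the KO arrays were more spread than the WT arrays. The change was −5.55 ± 0.27 (SE, 95% interval −6.13 to −4.96, limma adjusted p = 1.22e-09), so KO testis held 2.14% of the WT signal, a 46.8-fold fall. Its mean level went from the 95.3rd to the 16.4th percentile of all genes, and 13 genes fell more. Whether the KO signal was above background was not tested, so the fold and percent are those of the measured signal.

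Prss55 encodes a protease anchored to the sperm surface by a lipid, also needed for passage into the oviduct. Its WT arrays read 11.97, 11.89, 11.94, 12.12 and 12.32, and its KO arrays 6.63, 7.20, 7.27, 6.34 and 6.13. All 5 KO arrays were again far below all WT arrays. The fall was 40.4-fold, a change of −5.34 ± 0.19 (SE, 95% interval −5.75 to −4.92, limma adjusted p = 5.33e-11), which left 2.48% of the WT signal, and 31 genes fell more. Prss37 and Prss55 thus changed by sizes whose intervals overlap.

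Prss51, a less studied gene that lies directly beside Prss55 on chromosome 14, had WT levels of 10.03, 9.64, 9.67, 10.02 and 10.45 and KO levels of 6.32, 6.56, 6.88, 6.28 and 6.14. The groups were fully apart, and the WT arrays were as spread as the KO arrays. The change was −3.53 ± 0.16 (SE, 95% interval −3.87 to −3.18, limma adjusted p = 5.34e-10), an 11.5-fold fall to 8.68% of the WT signal. The 3 large falls held in each batch that contained both genotypes. For Prss37 the change was −4.46 in batch 2 and −6.09 in batch 4, for Prss55 −4.66 and −5.95, and for Prss51 −2.91 and −4.20. Batch 2 held 1 KO array and batch 4 held 1 WT array, so each of these values rests on a single array of that genotype.

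Tmprss12 encodes a membrane-bound protease that sperm also need to move into the oviduct. Its levels were 9.22, 9.34, 9.21, 9.30 and 8.97 in WT and 9.50, 9.11, 9.45, 9.66 and 9.55 in KO. Of the KO arrays 4 lay above every WT array, and KO replicate 2 lay within the WT range. The change of 0.25 ± 0.10 (SE, 95% interval 0.03 to 0.46) was not called (limma adjusted p = 0.0656). Without KO replicate 2 it was 0.33 and called higher (limma adjusted p = 0.00552). With batch as a block it was 0.40 and called higher (limma adjusted p = 0.0125), and array weights also gave a call (0.27, limma adjusted p = 0.0263). The block rests on batches 2 and 4, where the changes were 0.19 and 0.60, and the only WT array of batch 4, WT replicate 5, had the lowest level of all WT arrays. Centring on housekeeping genes lowered the change to 0.13 (limma adjusted p = 0.296). With B2m left out of the housekeeping list the change was 0.21 (limma adjusted p = 0.0826).

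Prss21 encodes testisin, a lipid-anchored protease of spermatids and sperm. It was measured at 9.85 to 10.19 in WT and at 9.84 to 10.64 in KO, so the WT range lay within the KO range. Its change of 0.17 ± 0.13 (SE, 95% interval −0.10 to 0.44, limma adjusted p = 0.300) was not called.

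The acrosomal proteases fell little or not at all. Acr encodes acrosin, the best known trypsin-like protease of the acrosome. It was measured at 11.53, 11.58, 11.55, 11.69 and 11.82 in WT and at 11.14, 10.92, 11.01, 11.32 and 11.23 in KO. All KO arrays lay below all WT arrays, and the groups were close. The change was −0.51 ± 0.08 (SE, 95% interval −0.69 to −0.33, limma adjusted p = 0.000305), a 1.42-fold fall, and it was −0.54 in batch 2 and −0.59 in batch 4.

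Prss39, also named TESP1, is a second acrosomal protease. Its levels of 12.42, 12.55, 12.25, 12.49 and 12.69 in WT and of 12.29, 12.24, 12.26, 12.39 and 12.32 in KO overlapped, because WT replicate 3 was as low as the KO arrays. The change of −0.18 ± 0.08 (SE, 95% interval −0.35 to −0.02) was not called (limma adjusted p = 0.0782). Without WT replicate 3 it was called lower (limma adjusted p = 0.0156).

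Pcsk4, the convertase of the germ line, which cuts precursor proteins after basic residues, was measured at 9.43, 9.70, 9.49, 9.58 and 9.61 in WT and at 9.29, 9.04, 9.21, 9.43 and 9.40 in KO. The groups met at 9.43 without overlapping. The change was −0.29 ± 0.08 (SE, 95% interval −0.47 to −0.12, limma adjusted p = 0.0112). It lost its call within batch 2 (−0.33, limma adjusted p = 0.145), within batch 4 (−0.24, limma adjusted p = 0.228) and without KO replicates 2 and 3 (−0.19, limma adjusted p = 0.0668).

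Prss44 and Prss50 lie close together on chromosome 9. Prss50, also named TSP50, has a threonine in place of the catalytic serine, and Prss44 is a testis protease. Prss44 was at 7.72 to 8.06 in WT and 7.37 to 8.11 in KO, and the change of −0.06 ± 0.12 (SE, 95% interval −0.32 to 0.20, limma adjusted p = 0.742) changed sign with the batch as a block. Prss50 was at 7.43 to 7.79 in WT and 7.55 to 7.95 in KO, a change of 0.11 ± 0.08 (SE, 95% interval −0.08 to 0.29, limma adjusted p = 0.350). The change of Prss50 was −0.0094 when arrays were centred on housekeeping genes and 0.067 with B2m left out of that list. Neither gene was called.

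**Figure D2:**
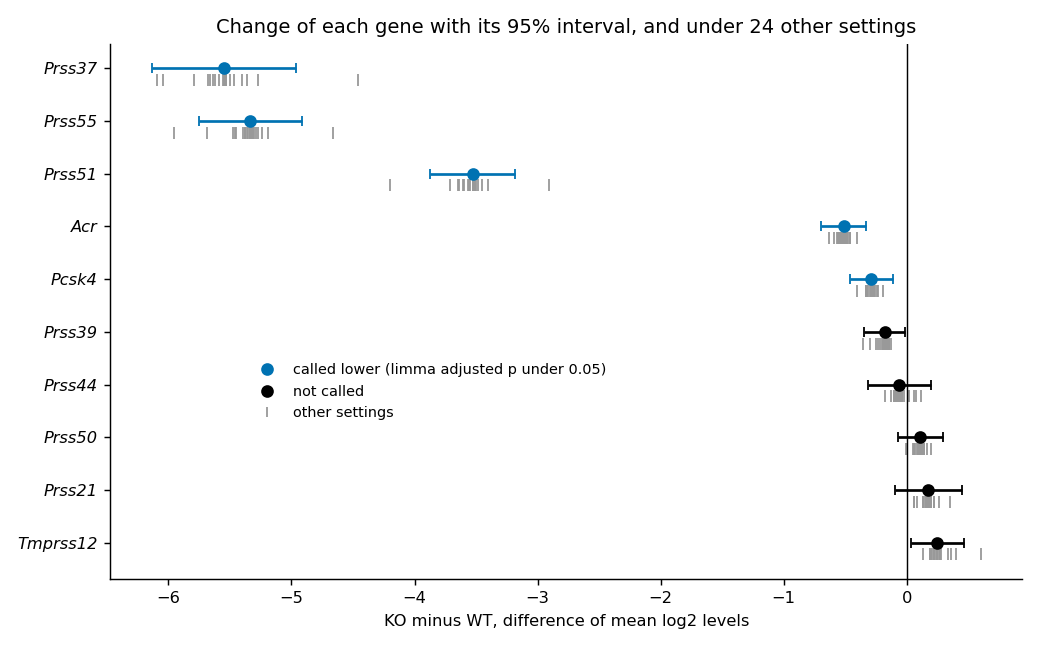
Log2 change, KO minus WT (x axis), of each gene with its 95% interval from limma, and small ticks for the value under each of 24 other settings. The 3 large falls stay at −2.91 or lower under every setting, and the ticks of Prss44 lie on both sides of 0.

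The KO arrays did not fall alike. Among Prss37, Prss55 and Prss51, KO replicate 3 was the highest KO array in 3 of 3 and KO replicate 5 the lowest in 3 of 3. Among the other 7 genes KO replicate 2 was the lowest KO array in 7 of 7 and KO replicate 3 the second lowest in 7 of 7. KO replicates 2 and 3 also had the highest mean levels of the elongating spermatid markers among KO arrays, 9.70 and 9.90, against 6.85 to 8.45 in the others. A lowest place of KO replicate 2 was not particular to the proteases. It also had the lowest KO mean of the Leydig, macrophage, peritubular myoid, Sertoli, spermatocyte, spermatogonia and blood markers, but not of the round spermatid and epididymis markers. KO replicate 3 had the highest KO mean of the round spermatid, Leydig, macrophage, peritubular myoid and spermatogonia markers. KO replicate 5 had the lowest KO mean of the round spermatid markers (9.21) and of the elongating spermatid markers (6.85). The share of all genes with either order was not counted. Of the other KO arrays, all 3 belong to batch 4, while KO replicate 2 was alone in batch 1 and KO replicate 3 was the only KO array of batch 2. The part of these differences in the array order was not tested.

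**Figure D3:**
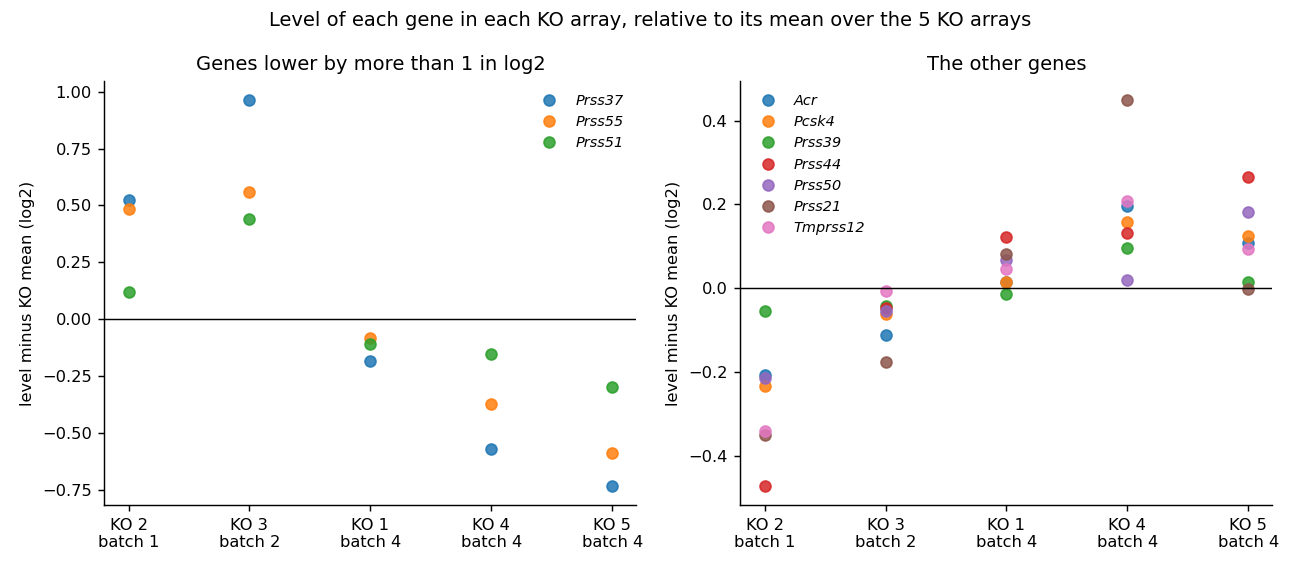
Each KO array's difference from the mean of the 5 KO arrays (log2, y axis) for the 10 genes. KO replicates 2 and 3 lie highest for Prss37, Prss55 and Prss51 and lowest for the other 7 genes.

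Several of the proteases lie in clusters of related genes, and neighbours did not change by the same amount. In the gene order of GRCm38.p6, the measured genes on chromosome 14 run Rp1l1, Prss55, Prss51, Prss52 and Msra. All 3 protease genes fell, Prss52 from 11.49 ± 0.06 to 6.41 ± 0.74 (SD, n = 5 each), a change of −5.07 ± 0.26 (SE, limma adjusted p = 2.24e-09). The flanking Rp1l1 and Msra had changes of −0.06 and −0.08 and were not called, while 4930578I06Rik, the measured gene on the far side of Rp1l1, fell by 1.21 on the log2 scale (limma adjusted p = 1.94e-06). Prss37 lies on chromosome 6 between the taste receptor gene Tas2r108 and the odorant receptor gene Olfr461, whose changes of 0.21 and 0.05 were not called. Near-identical sequences of neighbouring proteases can share array signal.

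Prss51 fell less than Prss55 beside it. The level of Prss51 minus that of Prss55 within an array was −2.09 ± 0.18 in WT and −0.28 ± 0.26 in KO (SD, n = 5 each), so the difference of the changes was 1.81 (exact permutation test over arrays, two-sided, p = 0.00794, the smallest that 5 against 5 arrays allow; adjusted p = 0.0159 over 2 pairs). It was 1.76 in batch 2 and 1.75 in batch 4. For the pair Prss44 and Prss50 the difference was −0.17 (exact permutation p = 0.143; adjusted p = 0.143), and it was −0.22 without WT replicate 2 (exact permutation p = 0.0476). KO levels of Prss51 and Prss55 were at the 34.7th and the 40.9th percentile of the values of all features in all arrays. Whether the low signal range limited either fall was not tested.

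The measured genes of the chromosome 9 cluster run Prss42, Prss44, Prss43, Prss45, Prss46, Prss50 and then Tmie. Within it Prss45 fell from 8.96 to 7.46 (−1.50 ± 0.09, SE, limma adjusted p = 7.61e-09) and Prss46 rose from 9.96 to 10.63 (0.67 ± 0.07, SE, limma adjusted p = 5.27e-06). Prss42 (0.21, limma adjusted p = 0.0522) and Prss43 (−0.04) were not called, as were Prss44 and Prss50. Beside Pcsk4, Reep6, which encodes a membrane-shaping protein of the endoplasmic reticulum, fell by 2.10 on the log2 scale (SE 0.06, limma adjusted p = 8.24e-12). Over all genes 13.2% were lower and 31.1% were higher. Of the 18 measured protein-coding genes next to a member, 2 were lower, 5 were higher and 11 were not called, with a median change of 0.11. The 5 higher ones were Prss46, Rabl2 beside Acr (0.51), Atf1 and Mettl7a1 on either side of Tmprss12 (0.27 and 0.39) and 2310011J03Rik on the other side of Pcsk4 (0.25).

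**Figure D4:**
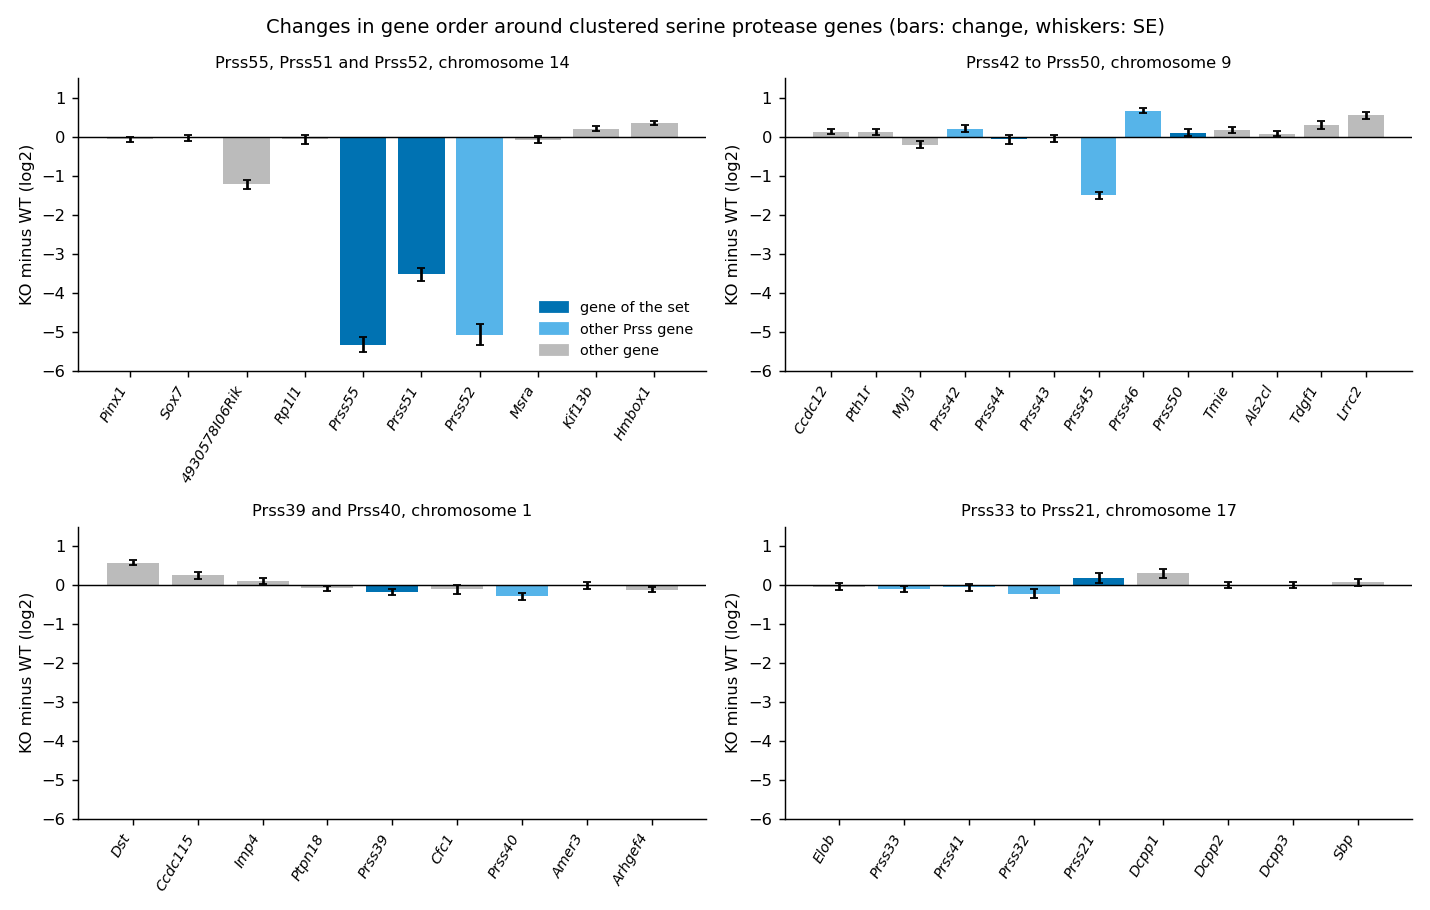
Log2 change, KO minus WT (y axis, bars with SE whiskers), of measured genes in their chromosomal order around clustered protease genes on chromosomes 14, 9, 1 and 17, spaced by rank and not by distance. On chromosome 14 Prss55, Prss51, Prss52 and 4930578I06Rik fell, Kif13b and Hmbox1 rose, and the flanking Rp1l1 and Msra were not called. On chromosome 9 Prss45 fell, and Prss46, Tdgf1 and Lrrc2 rose. On chromosome 1 Prss40 fell, and Ccdc115 and Dst rose. On chromosome 17 no gene shown around Prss21 was called.

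Of 47 other Prss and Tmprss genes, 7 were lower, 7 were higher and 33 were not called, with a median change of 0.004. Over all genes 13.2% were lower and 31.1% were higher. With arrays centred on housekeeping genes, 13 of the 47 were lower and 5 higher, and with B2m left out of the housekeeping list, 8 were lower and 6 higher. Near a member, with at most 10 annotated genes between, lay 12 of them, of which 4 were lower (Prss52, Prss58, Prss45 and Prss40) and 1 was higher (Prss46). Of the 35 others 3 were lower (Prss29, Tmprss11e and Tmprss2, at −0.27, −0.23 and −0.22) and 6 were higher (Tmprss11b, Prss53 at 0.85, Prss35 at 0.85, Prss54 at 0.69, Tmprss11a at 0.39 and Tmprss11d at 0.22). Those with changes under 1 in size were singled out once their values were known. Tmprss11a (4.47 in WT, 4.86 in KO), Tmprss11d (4.87, 5.08) and Tmprss11e (5.03, 4.80) had low levels in both genotypes. None of these mean levels was above the 13.1st percentile of the values of all features in all arrays. Whether they were above background was not tested. Prss58, on chromosome 6 near Prss37, fell from 10.68 ± 0.11 to 7.27 ± 0.36 (SD, n = 5 each), a change of −3.41 ± 0.14 (SE, limma adjusted p = 1.66e-10). Prss40 was lower by a change of −0.29 (limma adjusted p = 0.0119). Tmprss11b rose from 5.788 to 7.146 (1.36 ± 0.12, SE, limma adjusted p = 5.73e-07) and was the only gene of these 47 higher by at least 1, a size reached by 1.37% of all genes. That a group of genes is near a member was read from the gene order and has no test here.

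**Figure D5:**
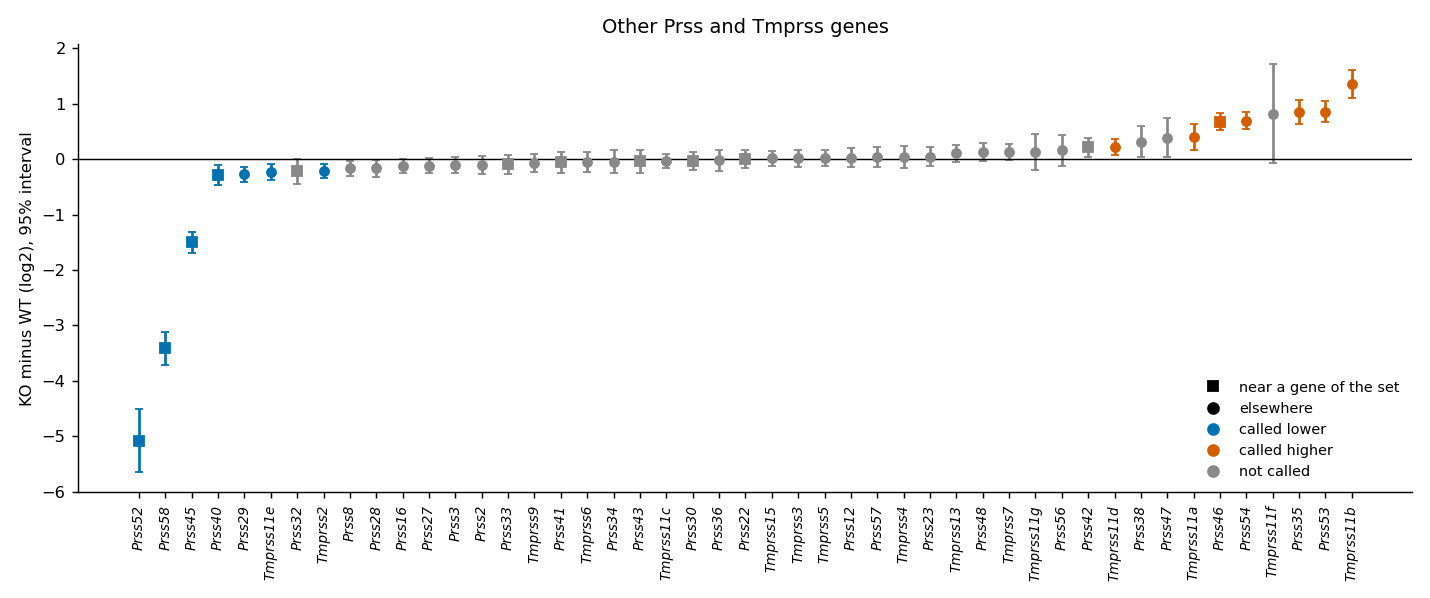
Log2 change, KO minus WT (y axis, points with 95% intervals), of the 47 other Prss and Tmprss genes in order of change, squares for genes near one of the 10 and circles for the others. Prss52, Prss58 and Prss45, all squares, lie lowest, and Tmprss11b lies highest.

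The other convertases moved in both directions. Of 9 listed genes of this system 7 were measured, and 1 was lower (Pcsk6, −0.30) while 4 were higher, namely Furin (0.40), Pcsk1 (0.45), Pcsk5 (0.25) and the membrane-bound site-1 protease Mbtps1 (0.26), with a median of 0.25. The 5 were singled out once their values were known, and over all genes 13.2% were lower and 31.1% were higher.

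Inhibitors of serine proteases changed by −0.78 to 0.65 on the log2 scale. Of 21 listed genes 19 were measured, and limma called 0 lower (0 also at an unadjusted p under 0.05) and 4 higher: Spink11 (0.65), Spint2 (0.32), Serpina5 (0.56) and Eppin (0.58), singled out once their values were known. The level of Spink11 was low, 4.07 in WT and 4.73 in KO. These lie at the 5.04th and the 9.66th percentile of the values of all features in all arrays. Whether its signal was above background was not tested. Spink2, which holds acrosin in check in the acrosome, was not called (0.11, limma adjusted p = 0.174). The median change was 0.04, and over all genes 13.2% were lower and 31.1% were higher.

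Partners and substrates of these proteases, genes for proteins that bind them, need them or act beside them, split in both directions. Of 23 listed genes 22 were measured, and 7 were lower and 6 were higher, with a median of 0.08. Over all genes 13.2% were lower, 31.1% were higher and 4.36% were lower by at least 1. The sperm hyaluronidases Hyal5 (−4.84) and Spam1 (−3.09), the chaperone gene Calr3 (−2.998), the peptidase Ace (−2.42) and Pmis2 (−2.15), a gene for a protein of the sperm surface, fell by at least 1. Acrbp, which binds the acrosin precursor, was lower by a change of −0.30. Pdilt was also lower (−0.38). Adam3, whose protein needs Prss37 to mature, was not called (0.07, limma adjusted p = 0.307). The 6 higher genes were Zp3r (0.48), Adam2 (0.39), Adam1b (0.35), Zpbp2 (0.33), Spesp1 (0.31) and Zpbp (0.25).

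The genes whose levels followed Prss37 most closely over the 10 arrays were the tubulin gene Tuba8, Fam71a and Tlcd4, each with Pearson's r = 0.999. These changed by −4.98, −4.19 and −4.69. The 10 arrays fall into the 2 genotypes and share the same RNA samples, so this likeness is a description of the genotype difference and of the order of the KO arrays.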

How the data were processed

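The deposited values were used as given: log2 expression levels that the authors made from the array scans with RMA in the XPS package, using core meta-probesets, an antigenomic background and quantile normalisation. The package version and the build of the probe annotation are not given in the sources used here. Of 35557 rows 9868 were empty and 25689 were used. A gene was read from its feature with a single symbol and the highest mean, symbols being updated through RefSeq gene identifiers (GRCm38.p6), which gave 19661 genes. Groups and the 4 batches came from the labels. Replicate numbers follow deposition and pair nothing. The arrays limit the precision through their number, and they are separate mice.

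The genotypes were tested with limma 3.58.1 under R 4.3.3 (lmFit, eBayes, two-sided, no covariate, Benjamini-Hochberg over all features), a step tested on simulated data. Neighbours were compared by an exact permutation test over arrays. The 10 genes and the lists were chosen with earlier results of these data known. Named were all 10 genes, Crem, called list genes with a change of at least 1 (up to 6 a list), genes next to a member and the 3 most alike to the largest change. Other genes were named for their known role or after their values were seen. Settings tried included centring, batch, array weights, a filter on low levels and each array left out. A CRE search with at most 1 mismatch was chosen after seeing the data.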

Additional observations from a re-analysis of the deposited data

How the results depend on the processing

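Of 24 other settings per gene, 4 of the 10 genes (Prss37, Prss55, Prss51 and Acr) kept their direction and call in all. Pcsk4, Prss39, Tmprss12, Prss21, Prss44 and Prss50 did not. Prss44 turned positive with batch as a fixed block (0.018), in batch 4 (0.076), with array weights (0.014), without KO replicate 2 (0.059, with −0.126 to 0.059 over each array left out) and without KO replicates 2 and 3 (0.11), and Prss50 turned negative with housekeeping centring (−0.0094). Prss39 was called lower after quantile normalisation once more, either housekeeping centring and trend and robust eBayes, and Prss21 was called higher (0.35) without KO replicates 2 and 3. The genes called higher numbered 1 (Tmprss12) with batch as a block, 1 with array weights, 2 without KO replicates 2 and 3, and 0 to 1 with each array left out. Those called lower numbered 4 at an adjusted p under 0.01, 4 without KO replicates 2 and 3, and 5 to 6 with each array left out. The other Prss and Tmprss genes called lower were 13 with housekeeping centring, 3 in batch 2, 4 in batch 4 and 4 at an adjusted p under 0.01, and 7 to 8 with each array left out. Convertases changed were 3, 0, 1 and 3 under the same settings (4 to 6 with each array left out), and partner genes 6 in batch 2 and 8 in batch 4. Neighbour differences were 1.74 to 1.90 (Prss51 minus Prss55) and −0.22 to −0.10 (Prss44 minus Prss50) with each array left out, the latter 0.015 in batch 4. The CRE core and the CRE with 1 mismatch each matched 1 promoter, against 0 for the full CRE. Both matches were the same site of Tmprss12, and the CRE with at most 1 mismatch was in 12.5% of all windows. Housekeeping centring moved the median change of all genes from 0.07 to −0.05 and the higher share of calls from 70.1% to 43.3%. With B2m left out of the housekeeping list, these were 0.03 and 63.6%. Under that setting 8 other Prss and Tmprss genes were called lower, 4 convertases changed and the change of Prss50 was 0.067. No paired analysis was possible because the replicate numbers follow deposition order. Batch 2 holds 1 KO array and batch 4 holds 1 WT array, so their counts rest on single arrays. The cause of these shifts was not tested.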
